A study of Mus musculus with 60 samples.

Results

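Hepatocyte growth factor (HGF) was added together with interleukin 6 (IL-6) to cultured mouse hepatocytes, and the expression response was followed at 0.5, 2 and 4 h against cells given IL-6 alone. The 12 arrays were chosen by their titles: 6 of IL-6 plus HGF and 6 of IL-6, with 2 arrays per condition and hour, out of 60 arrays in the series. Both groups were primary hepatocytes from male C57BL/6N mice of 8 to 12 weeks. The cells were attached to collagen I and then kept for 24 h without serum, in medium with 100 nM dexamethasone, so every group also carried this glucocorticoid. The IL-6 group received 40 ng/ml rhIL-6, and the other group 40 ng/ml rhIL-6 and 40 ng/ml rmHGF. Cells given HGF alone and unstimulated cells of the same hours, 12 further arrays, served to set the HGF difference with IL-6 beside that without it. Each experiment used cells of 1 animal or a pool of up to 3, per the labels. The protocol text speaks of biological triplicates, whereas 2 arrays per condition and hour were analysed here. Whether these stem from different animals is not stated, so each p-value reflects array-to-array spread that could be purely technical.

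HGF signals through the receptor tyrosine kinase MET, which recruits adaptors such as GAB1 and drives the RAS-MAP kinase and PI3-kinase pathways. In the liver it is a classical mitogen for hepatocytes after tissue loss. IL-6 binds its receptor IL6RA and gp130 (Il6st), activates JAK kinases and STAT3, and switches on the acute phase programme, in which hepatocytes secrete plasma proteins such as fibrinogen, serum amyloid A and hepcidin. MAP kinase signalling is known to act within minutes on immediate early genes, many of them transcription factors of the FOS, JUN and EGR families, and later on phosphatases that switch the kinases off again.

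Values were log2 intensities of 14512 genes that passed an intensity filter. All differences are log2 differences, IL-6 plus HGF minus IL-6 at the same hour, each given with its fitted standard error (SE). A gene was called when its limma p, adjusted over all genes by Benjamini-Hochberg, was under 0.05, and "rose" and "fell" are used of called genes. Array medians lay between 4.88 and 4.97 over both groups. They were lower with HGF added at 0.5 h (4.897 and 4.883 against 4.968 and 4.91) and slightly so at 2 h (4.917 and 4.939 against 4.947 and 4.94), with overlap at 4 h. Hybridisation controls set the groups apart at matched hours. The bioB spike read 6.82 to 7.0 on the 6 IL-6 arrays and 5.63 to 6.01 on the 6 arrays with HGF added. The bioC spike was higher with HGF added at each hour without overlap: 9.68 and 9.71 against 9.44 and 9.28 at 0.5 h, 9.56 and 9.57 against 9.49 and 9.43 at 2 h, and 9.46 and 9.56 against 9.37 and 9.36 at 4 h. The cre spike was likewise higher at 0.5 h (13.27 and 13.24 against 13.05 and 12.97) and 4 h, but not at 2 h. The gap between 3' and 5' signal, a mark of RNA quality and labelling, also differed for cellular transcripts. For gapdh it was 0.24 and 0.22 against 0.15 and 0.10 at 2 h and 0.18 and 0.25 against 0.14 and 0.11 at 4 h, with overlap at 0.5 h. For actin it was 0.51 and 0.50 against 0.42 and 0.41 at 0.5 h and 0.56 and 0.46 against 0.43 and 0.37 at 2 h, with overlap at 4 h. For the dap spike it was 2.46 to 2.82 and 2.59 to 2.86 over the 3 hours. These differences in hybridisation, labelling or RNA quality and the addition of HGF cannot be told apart. Hepatocyte markers had the same summed level in both groups (16.39 to 16.48 and 16.35 to 16.50). Of 10 Kupffer cell and macrophage markers, which summed to 9.49 to 9.67 with IL-6 and 9.24 to 9.58 with HGF added, 0 rose and 3 fell in the F-test over the 3 hours. Over all genes that test called 12.5% higher and 10.5% lower. Sums for endothelial, stellate and lymphoid markers overlapped between the groups, as did those of cholangiocytes (8.60 to 8.88 and 8.61 to 9.26), and the part of other cells in the results was not tested. In bulk samples, fewer cells of a type and less RNA per cell cannot be told apart.

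At 0.5 h the genes with the firmest rises included several immediate early genes, though other genes of that kind, such as Egr3, were not called. The transcription factors Egr2, Fos, Atf3, Jun and Ier2 rose, as did Edn1, the precursor of the vasoconstrictor endothelin, Ccn1, a secreted matrix protein, Nfkbiz, a nuclear regulator of NF-kB, and Dusp1, a phosphatase of MAP kinases. These were among 16 genes that rose under every one of the 12 settings tried for that hour, by 1.21-fold (Dusp1) or more in those named so far, the others being Dact1, Fzd5, Pggt1b, Tmem170b, Adamts1, Btg2 and Clk1. By contrast 0 genes fell under every setting. Egr2 read 8.15 and 7.96 with HGF added and 6.29 and 6.37 with IL-6. Both HGF arrays lay above both IL-6 arrays, a 3.30-fold difference (1.72 ± 0.17 SE, adjusted p = 3.72e-09). Fos read 12.33 and 12.26 against 11.33 and 11.35 (0.95 ± 0.11, adjusted p = 8.1e-08). Edn1 read 8.06 and 8.10 against 7.29 and 7.32, and it was back at the level of IL-6 alone at 2 h (difference -0.14, adjusted p = 0.38). Atf3, a stress-responsive partner of JUN, read 10.60 and 10.37 against 9.79 and 9.71 at 0.5 h and 8.51 and 8.48 against 8.50 and 8.57 at 4 h, where the groups overlapped. Jun itself rose by 0.45 at 0.5 h (adjusted p = 3.01e-07), fell by 0.20 at 2 h (adjusted p = 0.0154) and differed by -0.00 at 4 h (adjusted p = 0.981).

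The whole count at this hour was less firm than those genes. Of all genes tested 4.62% were called at 0.5 h, 506 higher (3.49%) and 165 lower (1.14%). With the first IL-6 array of 0.5 h left out 28 genes were called in all. Leaving out the first or the second IL-6 plus HGF array gave 103 and 127, and without the second IL-6 array 867 were called. Quantile normalization left 236 genes and turned the split, with 96 higher and 140 lower. Of the 165 genes that were lower, 68.5% had a mean log2 intensity under 6, against 36.4% of all genes tested. Edn3, a second endothelin gene and the largest fall, read 6.45 and 6.02 against 7.32 and 7.26 (-1.06 ± 0.19, adjusted p = 0.00105). Its call was lost without the second IL-6 plus HGF array (-0.84, adjusted p = 0.0601) and when values were averaged over probe sets (-0.29, adjusted p = 0.0606), and it was not called at 2 or 4 h (0.13, adjusted p = 0.798, and 0.17, adjusted p = 0.679). Ss18l1 (-0.72), Tspy-ps (-0.78), Glp1r (-0.78), Gpr45 (-0.70), Galr1 (-0.69), Stpg1 (-0.68) and Dcdc2a (-0.67), the other large falls, were likewise called at 0.5 h and not at 2 or 4 h, and each lost its call when one or more single arrays were left out. Some of the largest rises were also dim: S100g, a calcium-binding protein, read 5.63 and 5.60 against 4.57 and 4.94 (0.86, adjusted p = 0.00067; without the first IL-6 array 0.67, adjusted p = 0.125). The dim genes Efemp1, Dus4l, Armcx4 and Cfap69 rose by 0.78, 0.81, 0.78 and 0.76, and none of these calls held without the first IL-6 array.

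The promoters of a few of the early genes hold a CArG box, the element bound by serum response factor, through which growth factors are known to switch on immediate early genes. RefSeq promoter windows of 300 bases (250 before to 50 after each transcription start, mouse build GRCm38.p6) were found for 11638 of the 14512 genes tested. A CArG box on either strand lay in 1.6% of these and in 3 of the 56 genes with a window among the 66 that rose at all 3 hours (5.36%): Egr2, Zfp36 and Dusp5. Genes with several starts have several windows. The cAMP response element TGACGTCA was found in 3.19% of all and in 5 of the 56 (8.93%), Btg2, Dusp1 and Maff among them. The AP-1 site TGACTCA lay in 5.36% of the 56 and 4.98% of all, the EGR site (GCGTGGGCG or GCGGGGGCG) in 10.7% and 6.97%, and the STAT site TTCNNNGAA in 7.14% and 8.36%. These shares describe letters in a window, and no binding was measured. The CArG boxes are shown with 10 bases on each side, the box in capitals, because these are the genes whose rise lasted from 0.5 to 4 h. The first Egr2 stretch lies at chr10:67537484-67537513 and the second at chr10:67537787-67537816, both on the plus strand. That of Zfp36 lies at chr7:28379267-28379296 on the minus strand. For Dusp5 the 250 bases before the start are shown (chr19:53528895-53529144, plus strand), which hold 2 boxes side by side.
Egr2, first box: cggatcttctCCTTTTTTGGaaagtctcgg
Egr2, second box: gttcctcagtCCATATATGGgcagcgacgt
Zfp36: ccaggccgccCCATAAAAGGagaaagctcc
Dusp5: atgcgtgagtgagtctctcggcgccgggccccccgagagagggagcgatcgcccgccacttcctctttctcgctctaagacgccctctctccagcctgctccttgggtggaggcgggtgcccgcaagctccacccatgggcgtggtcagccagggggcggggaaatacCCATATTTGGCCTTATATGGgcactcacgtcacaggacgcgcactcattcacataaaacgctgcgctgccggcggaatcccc

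With all arrays in the fit the number of genes called grew over the hours. At 4 h falls outnumbered rises among all calls, but not among calls that held under every setting. At 2 h 8.57% of all genes were called, 751 higher (5.18%) and 492 lower (3.39%). At 4 h 13.3% were called, 848 higher (5.84%) and 1075 lower (7.41%). Most differences were small: a 2-fold difference was reached among called genes by 1 higher and 1 lower gene at 0.5 h (0.00689% each), by 7 and 6 at 2 h (0.0482% and 0.0413%) and by 12 and 6 at 4 h (0.0827% and 0.0413%). Quantile normalization gave 639 higher and 648 lower at 2 h, so the excess of rises at that hour was lost under it. The F-test over the 3 hours called 23% of genes, of which 1815 were higher and 1523 lower at their hour of largest difference. That hour was 0.5 h for 585 of the rises and 189 of the falls, 2 h for 589 and 429, and 4 h for 641 and 905. The difference itself changed between the hours in 1428 genes (9.84%). Under every setting 185 genes rose and 80 fell at 2 h, and 296 rose and 233 fell at 4 h.

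Of the 506 genes that rose at 0.5 h, 145 also rose at 2 h (28.7% of them and 19.3% of the rises at 2 h). From 2 to 4 h the shared rises were 334 (44.5% and 39.4%). Of the 165 early falls 7 were shared with 2 h (4.24%), near the 3.39% of all genes that fell at 2 h. Between 2 and 4 h 190 falls were shared (38.6% and 17.7%). Of all genes tested 5.18% rose at 2 h, and 5.84% rose and 7.41% fell at 4 h. At all 3 hours 66 genes rose and 4 fell, the latter being Zfp750, Cd14, the lipopolysaccharide co-receptor, Orm2, an acute phase orosomucoid, and Timm10b.

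**Figure D1:**
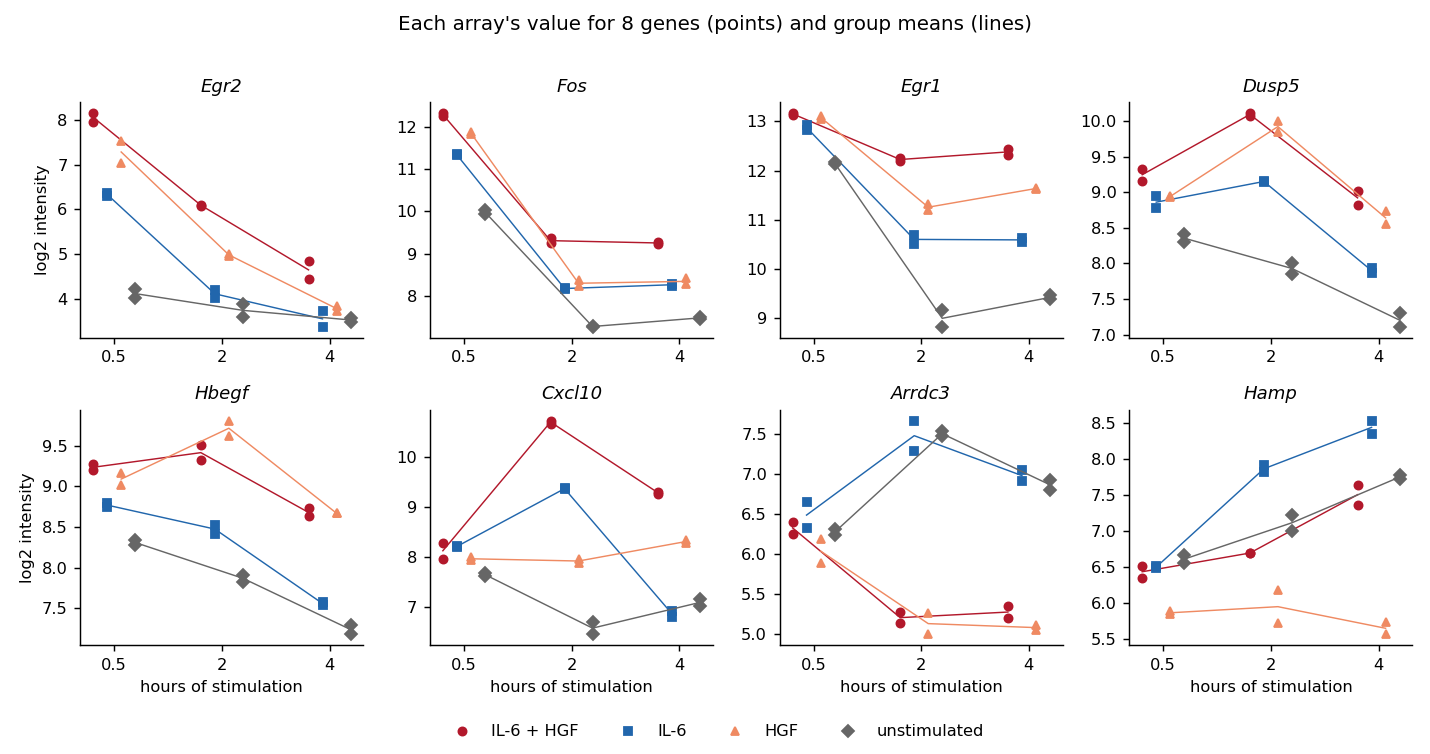
Log2 intensity (y axis) of 8 genes on each array at 0.5, 2 and 4 h (x axis, points side by side within an hour) in cells given IL-6 plus HGF, IL-6, HGF or neither. Lines join the means of the 2 arrays. Egr2 and Fos are highest at 0.5 h, Cxcl10 with both stimuli peaks at 2 h (10.72 and 10.66) and stays above IL-6 alone at 4 h (9.30 and 9.25 against 6.79 and 6.92), and Arrdc3 and Hamp lie below IL-6 alone at 2 and 4 h.

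AP-1 factors, dimers of FOS, JUN, ATF and small MAF proteins, were the list with the most early calls. Of 13 members tested 6 rose and 0 fell at 0.5 h (median difference 0.19, against 0.04 over all genes), 7 rose and 1 fell at 2 h (0.36 against -0.00), and 6 rose and 0 fell at 4 h (0.11 against -0.02). Over all genes 3.49% rose and 1.14% fell at 0.5 h, 5.18% and 3.39% at 2 h, and 5.84% and 7.41% at 4 h. The AP-1 calls that held under every setting were 3, 7 and 4 rises. Fos stayed 1.93, 2.19 and 1.99-fold above IL-6 alone at the 3 hours, with 9.36 and 9.25 against 8.15 and 8.19 at 2 h and 9.27 and 9.23 against 8.24 and 8.28 at 4 h. Fosl1, the FRA-1 subunit, came later. It read 8.39 and 8.47 against 8.07 and 8.44 at 0.5 h, where the arrays overlapped, and 9.02 and 9.12 against 7.75 and 7.83 at 4 h, a 2.44-fold rise (1.28 ± 0.09, adjusted p = 3.63e-15). The small MAF genes Maff and Mafk rose most at 2 h (0.62, adjusted p = 8.55e-12, and 0.58, adjusted p = 2.1e-09). Junb rose at each hour by 0.32, 0.36 and 0.45.

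Among 16 EGR and SRF-linked factors 4 rose and 0 fell at 0.5 h, 6 rose and 1 fell at 2 h, and 6 rose and 1 fell at 4 h. The shares of rises over all genes were 3.49%, 5.18% and 5.84%, and those of falls 1.14%, 3.39% and 7.41%. Egr1, a zinc-finger factor that rises in most mitogen responses, was already near its maximum with IL-6 alone at 0.5 h: 12.92 and 12.83, against 13.17 and 13.14 with HGF added (0.28 ± 0.09, adjusted p = 0.0624). With IL-6 alone it then dropped to 10.51 and 10.69 at 2 h and 10.63 and 10.55 at 4 h. With HGF added it read 12.25 and 12.20 at 2 h and 12.44 and 12.32 at 4 h. The difference was 3.08-fold at 2 h (1.62 ± 0.09, adjusted p = 7.31e-18) and 3.47-fold at 4 h (1.79 ± 0.09, adjusted p = 1.43e-19), with no overlap. Egr2 reached its largest difference at 2 h, 6.08 and 6.10 against 4.02 and 4.20 (1.98 ± 0.17, 3.94-fold). At 4 h it was still 2.13-fold higher at a low level (4.45 and 4.84 against 3.37 and 3.73). The serum-induced genes Ier2 and Ier5 rose at all 3 hours, Ier2 by 0.62, 0.68 and 0.67 and Ier5 by 0.25, 0.80 and 0.75. Egr3 was not called at any hour (-0.06, -0.11 and -0.08, adjusted p from 0.639 to 0.776).

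Some negative regulators of MAP kinase signalling rose as well. Of 18 members 3 rose at 0.5 h, 7 at 2 h and 7 at 4 h, and 0 fell at any of these hours. Rises made up 3.49%, 5.18% and 5.84% of all genes at the 3 hours, and falls 1.14%, 3.39% and 7.41%. Dusp6, the cytoplasmic phosphatase of ERK, read 10.77 and 10.86 against 9.68 and 9.66 at 2 h (1.15 ± 0.07, adjusted p = 2.94e-17) and 10.73 and 10.79 against 9.95 and 9.91 at 4 h. Neither hour showed overlap. Dusp4, a nuclear phosphatase, was level at 0.5 h (5.89 and 6.25 against 6.08 and 6.16), rose 2.22-fold at 2 h (6.54 and 6.51 against 5.35 and 5.41) and by 0.46 at 4 h. Dusp5, which acts on ERK in the nucleus, read 10.07 and 10.11 against 9.16 and 9.14 at 2 h and 9.02 and 8.82 against 7.93 and 7.87 at 4 h (1.02 ± 0.12, adjusted p = 5.75e-09). Phlda1 rose by 0.95 and 0.93 at 2 and 4 h, and Spred1, an inhibitor of RAS-RAF signalling, by 0.56 at 4 h (adjusted p = 1.71e-05). Spry2, a receptor tyrosine kinase antagonist, was not called (0.22, 0.17 and 0.22, adjusted p from 0.393 to 0.599).

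Growth factor ligand, receptor and adaptor genes were also counted. Of 7 EGF-family genes tested, 2 rose and 0 fell at 0.5 h, 1 rose and 1 fell at 2 h, and 3 rose and 1 fell at 4 h. The ligand gene Hbegf, a membrane-anchored growth factor, rose at all 3 hours, from 9.27 and 9.20 against 8.79 and 8.75 at 0.5 h to 8.73 and 8.63 against 7.58 and 7.54 at 4 h (1.12 ± 0.10, adjusted p = 1.9e-11). A second ligand, Btc, was level at 2 h (7.06 and 7.08 against 7.08 and 6.98) and rose at 4 h (7.36 and 7.31 against 6.44 and 6.58; 0.82, adjusted p = 1.35e-08). The receptor gene Egfr rose by 0.45 at 4 h, where Erbb3 fell by 0.53 (9.87 and 9.84 against 10.37 and 10.40), a fall not called when values were averaged over probe sets (-0.18, adjusted p = 0.129). Tgfa and Ereg were not called at any hour. Of 18 genes of MET, its adaptors and the proteases that activate HGF, 3 rose and 1 fell at 0.5 h, 2 rose and 0 fell at 2 h, and 2 rose and 2 fell at 4 h. All genes rose in 3.49% and fell in 1.14% at 0.5 h, in 5.18% and 3.39% at 2 h, and in 5.84% and 7.41% at 4 h. The few calls among the 18 at 2 and 4 h are thus no result about that list. At 0.5 h the rises in both lists exceeded the share over all genes, but 0 of them held under every setting. Met itself read 10.64 to 10.93 with HGF added and 10.62 to 10.88 without over the 3 hours, and was not called (0.03, 0.10 and 0.04, adjusted p from 0.314 to 0.743). The adaptor gene Gab1 rose by 0.26 at 0.5 h (adjusted p = 0.014) and fell by 0.36 at 4 h (adjusted p = 4.42e-05). Lrig1, whose product promotes the degradation of receptor tyrosine kinases, rose by 0.41 and 0.56 at 2 and 4 h.

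Genes of the IL-6 pathway itself rose in part. Of 23 SOCS, gp130 receptor, kinase and STAT genes 1 rose at 0.5 h, 8 at 2 h and 8 at 4 h, and 0 fell at any of these hours, with a median difference of 0.14 at 2 h and 0.11 at 4 h. All genes rose in 3.49%, 5.18% and 5.84% at the 3 hours and fell in 1.14%, 3.39% and 7.41%, so the 1 rise at 0.5 h is near that share. Il6ra, the receptor that binds IL-6, read 8.05 and 8.09 against 7.44 and 7.40 at 2 h (0.65 ± 0.08, adjusted p = 3.2e-08) and rose by 0.46 at 4 h. Il6st was not called (0.03, 0.04 and 0.08, adjusted p from 0.266 to 0.697), and its arrays lay between 10.01 and 10.35. Socs5 read 10.19 and 10.13 against 9.34 and 9.33 at 4 h, a 1.77-fold rise. The STAT feedback inhibitor Socs3 was high with IL-6 alone (11.90 and 11.81 at 0.5 h, against 6.48 and 6.39 in unstimulated cells) and was not called with HGF added at 0.5 or 2 h (0.14 and 0.04). At 4 h it read 11.22 and 11.14 against 10.79 and 10.74 and rose by 0.42 ± 0.09 (adjusted p = 0.000582). Cish and Socs2, feedback inhibitors better known from STAT5 signalling, rose by 0.57 and 0.50 at 4 h. Stat3 rose by 0.20 at 2 h at the edge of the threshold (adjusted p = 0.0499) and differed by 0.11 at 4 h (adjusted p = 0.323).

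Called acute phase genes were nearly all lower, although most of these genes were not called. Of 27 positive acute phase genes, those that hepatocytes raise in inflammation, 0 rose and 1 fell at 0.5 h, 0 rose and 6 fell at 2 h, and 1 rose and 10 fell at 4 h, with a median difference of -0.16 against -0.02 over all genes. Falls made up 1.14%, 3.39% and 7.41% of all genes at the 3 hours, and rises 3.49%, 5.18% and 5.84%. The 1 fall at 0.5 h is thus no result about the list. Falls that held under every setting were those of Hamp and Serpina3n at 2 h and of Hamp, Saa4 and Orm2 at 4 h. Hamp, which encodes the iron hormone hepcidin, read higher over time with IL-6 alone, from 6.49 and 6.52 at 0.5 h to 8.54 and 8.35 at 4 h. Unstimulated cells at 4 h, given with the interactions below, also read above those 0.5 h values. The part of IL-6 in the increase was not tested. With HGF added to IL-6 Hamp read 6.70 and 6.70 at 2 h, against 7.82 and 7.92 (-1.17 ± 0.16, adjusted p = 7.11e-07), and 7.37 and 7.65 at 4 h (-0.94 ± 0.16, adjusted p = 2.61e-05). The arrays did not overlap at either hour. Saa4 fell by 0.61 and Orm2 by 0.49 at 4 h, and Serpina3n, a serine protease inhibitor, fell by 0.57 at 2 h. Genes with near-identical relatives, Hamp, the Orm genes and the serum amyloid A genes, can hold signal of those relatives. The fibrinogen genes Fga, Fgb and Fgg, picked out after their values were seen, were not called (differences at 4 h of -0.04, 0.01 and 0.01). Of 11 negative acute phase genes, such as albumin, 0 rose and 0 fell at any of the 3 hours. The smallest adjusted p in the F-test was that of Itih2, 0.0917.

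**Figure D2:**
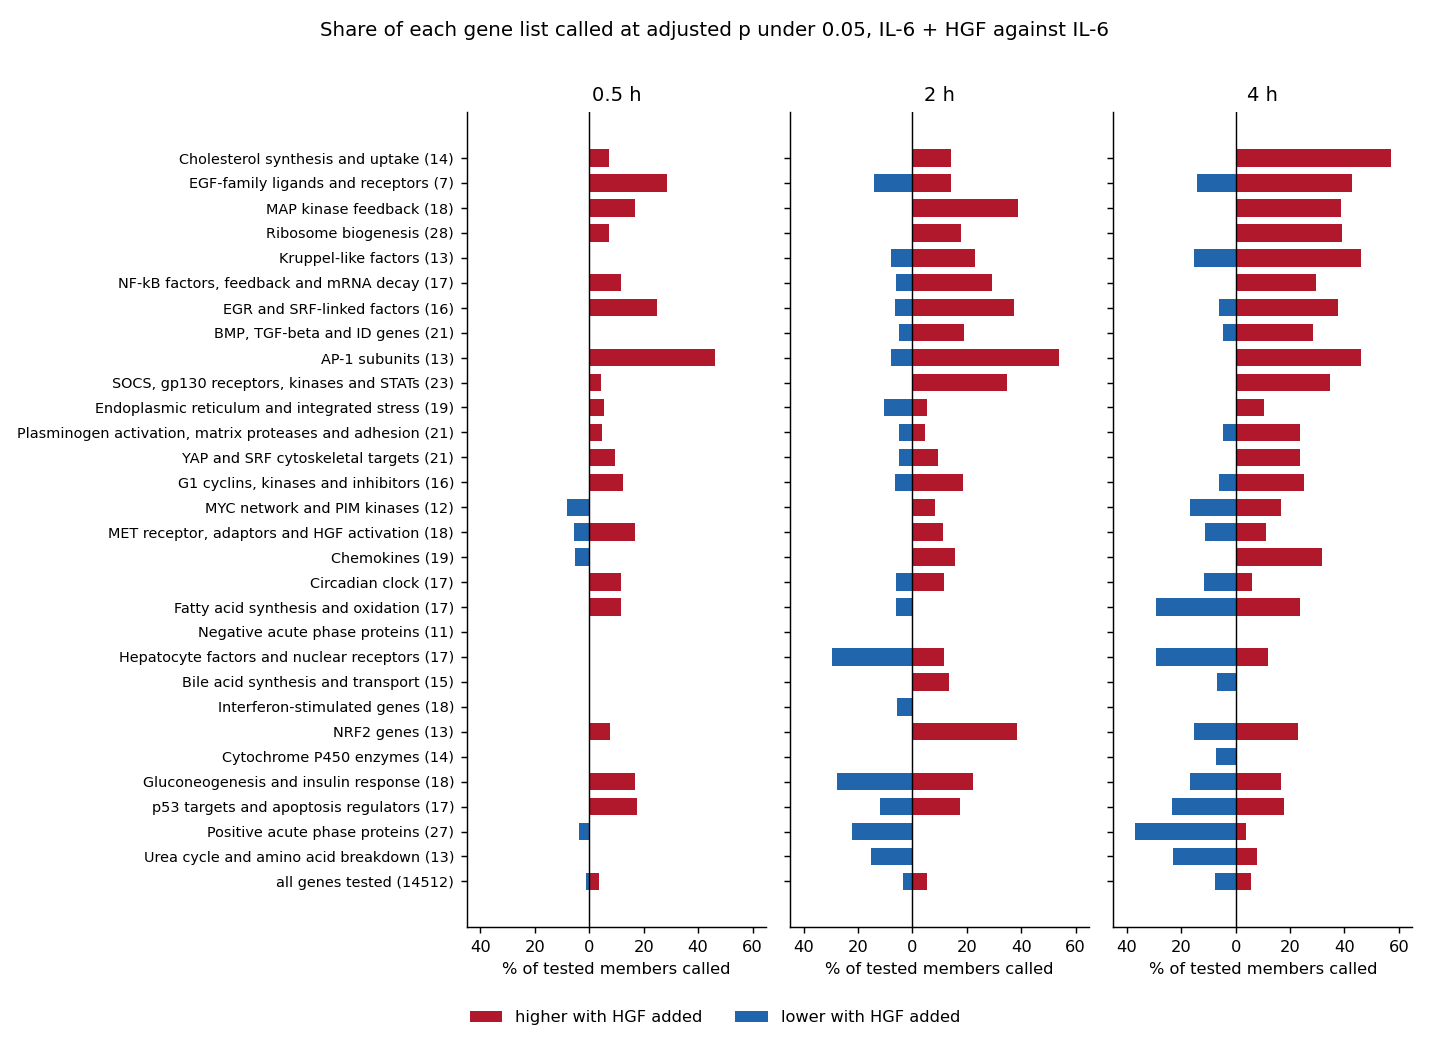
Share of the tested members of each of 29 gene lists (rows, number tested in brackets, all genes at the bottom) that were called higher (red, to the right) or lower (blue, to the left) with HGF added at 0.5, 2 and 4 h; the x axis is in percent of tested members. AP-1 subunits have the longest bar at 0.5 h (6 of 13), and at 4 h cholesterol genes (8 of 14) reach furthest right and positive acute phase genes (10 of 27) furthest left.

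Chemokine genes included the largest rise of all. Of 19 tested 0 rose and 1 fell at 0.5 h, 3 rose and 0 fell at 2 h, and 6 rose and 0 fell at 4 h. Among all genes 3.49%, 5.18% and 5.84% rose at these hours and 1.14%, 3.39% and 7.41% fell. The 1 fall at 0.5 h is thus no result about the list. Cxcl10, a ligand of the receptor CXCR3, read 7.96 and 8.28 against 8.22 and 8.19 at 0.5 h, where the groups overlapped. At 2 h it read 10.72 and 10.66 against 9.35 and 9.37 (1.33 ± 0.15, adjusted p = 8.98e-09). By 4 h it had dropped to 6.79 and 6.92 with IL-6 alone but stood at 9.30 and 9.25 with HGF added, a 5.36-fold difference (2.42 ± 0.15, adjusted p = 1.75e-16). Cxcl11, another CXCR3 ligand, rose by 0.87 at 2 h (6.00 and 5.87 against 5.23 and 4.90) and by 0.53 at 4 h. The third such ligand, Cxcl9, was not called at any hour (0.27, -0.02 and -0.30, adjusted p from 0.0634 to 0.953), although the F-test over the hours called it (adjusted p = 0.0393). Cxcl1, which attracts neutrophils, was level at 0.5 and 2 h and rose at 4 h, 11.93 and 11.93 against 11.55 and 11.41 (0.46 ± 0.06, adjusted p = 5.69e-07). Cxcl10 is also known as an interferon-induced gene. Of 18 interferon-stimulated genes tested 0 rose and 1 fell over the 3 hours in the F-test, against 12.5% and 10.5% of all genes. The gene that fell was Irf1, by 0.30 at 2 h.

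Other genes also rose at 4 h, and some of these encode secreted or surface proteins. Ivl, a cornified envelope protein, read 8.68 and 8.71 against 7.21 and 7.32 (1.43 ± 0.27, adjusted p = 0.000124). Thbs1, thrombospondin, read 8.50 and 8.32 against 7.13 and 7.23 (1.23 ± 0.22, adjusted p = 4.92e-05), and Dppa3 6.63 and 6.64 against 5.47 and 5.51 (1.14 ± 0.12, adjusted p = 2.09e-09). Slc16a6, a transporter of the monocarboxylate family, rose 1.98-fold at 2 h and 2.15-fold at 4 h. Inhba, the activin A subunit, read 8.98 and 8.79 against 7.96 and 8.01 at 4 h (0.90 ± 0.08, adjusted p = 3.11e-11). Ankrd1, a target of YAP, rose by 0.71, Plaur, the urokinase receptor, by 0.40 and Tgif1, a repressor of TGF-beta responses, by 0.45. Of 21 plasminogen activation, protease and adhesion genes 5 rose and 1 fell at 4 h, and of 21 BMP, TGF-beta and ID genes 6 rose and 1 fell. At that hour 5.84% of all genes rose and 7.41% fell.

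The AP-1 site TGACTCA, read on either strand, was more frequent in the promoter windows of the larger rises at 4 h. It lay in 13 of the 67 genes with a window (19.4%) among the 102 that rose by at least 0.5 at 4 h, in 9 of 125 (7.2%) of those that fell by at least 0.5, and in 4.98% of all genes tested. The STAT site TTCNNNGAA lay in 17.9% of these rises, 12% of these falls and 8.36% of all. These are descriptions of sequence with no test, and occupancy was not measured. Below are the stretches around the site in the rising genes with the 4 largest differences at 4 h that hold one, with the site or its reverse complement in capitals, because they include the gene with the largest difference of all: Cxcl10 (2.42; chr5:92348947-92348973, minus strand), Ivl (1.43; chr3:92573835-92573861, minus strand), Tpbg (0.99; chr9:85842138-85842164, plus strand) and Sphk1 (0.78; chr11:116531777-116531803, plus strand).
Cxcl10: ggagccttgcTGAGTCAtctccaaagt
Ivl: agttatcagaTGACTCAgaaaggaagg
Tpbg: gctttccgggTGACTCAcgtctttgca
Sphk1: agcgtgtcgcTGAGTCAccttctcgga

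The deepest fall was that of Arrdc3, an alpha-arrestin that promotes the internalisation of surface receptors. It was level at 0.5 h (6.25 and 6.40 against 6.65 and 6.32), where the arrays overlapped. At 2 h it read 5.27 and 5.13 against 7.67 and 7.29, a 4.87-fold lower level (-2.28 ± 0.14, adjusted p = 3.05e-17), and at 4 h 5.20 and 5.34 against 7.05 and 6.91 (-1.71 ± 0.14, adjusted p = 4.96e-13). Slc10a6, a carrier of sulfated steroids, and Onecut1 (HNF6), a liver transcription factor, fell at 2 h: Slc10a6 read 6.61 and 6.68 against 7.77 and 7.90, and Onecut1 6.83 and 6.65 against 7.72 and 7.81. At 4 h their differences were -0.13 (adjusted p = 0.754) and -0.22 (adjusted p = 0.467). Gadd45g, a growth arrest gene, fell by 0.99 at 2 h and by 0.88 at 4 h. At 4 h Paqr9 fell by 1.19 (6.34 and 6.39 against 7.57 and 7.54), 9230114K14Rik by 1.40 and Proser2 by 0.99.

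Among called liver transcription factors falls outnumbered rises, as they did over all genes at 4 h but not at 2 h. Of 17 hepatocyte factors and nuclear receptors 0 were called at 0.5 h, 2 rose and 5 fell at 2 h (median -0.23), and 2 rose and 5 fell at 4 h (-0.05). Under every setting 0 rose and 4 fell at 2 h, and 1 rose and 2 fell at 4 h. Of all genes 5.18% rose and 3.39% fell at 2 h, and 5.84% rose and 7.41% fell at 4 h. Besides Onecut1, Hnf4a fell by 0.43 at 2 h (10.68 and 10.67 against 11.05 and 11.16) and was not called at 4 h (-0.11, adjusted p = 0.482). Foxa2 fell by 0.29 at 2 h and its relative Foxa3 rose by 0.33 at 2 h and by 0.53 at 4 h (9.06 and 8.97 against 8.47 and 8.49). Rxra, the partner of many nuclear receptors, fell by 0.28 and 0.33, and Nr1i2, the xenobiotic receptor PXR, by 0.77 at 4 h. Of 13 Kruppel-like factors 0 were called at 0.5 h, 3 rose and 1 fell at 2 h, and 6 rose and 2 fell at 4 h. Klf10 rose 2.32-fold at 2 h (8.44 and 8.42 against 7.22 and 7.20) and by 0.36 at 4 h. Klf15, a factor of fasting metabolism, fell by 0.71 at 2 h and by 1.00 at 4 h (4.72 and 4.56 against 5.64 and 5.65). It is a dim gene, and its 4 h values with HGF added lay under the array medians (4.88 to 4.95 over the 6 arrays).

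Genes of fuel metabolism were called in both directions within a pathway. Of 18 genes of gluconeogenesis and the insulin response 3 rose and 0 fell at 0.5 h, 4 rose and 5 fell at 2 h, and 3 rose and 3 fell at 4 h. The shares over all genes were 3.49% and 1.14% at 0.5 h, 5.18% and 3.39% at 2 h, and 5.84% and 7.41% at 4 h. The glucose transporter Slc2a1 rose from 9.81 and 9.73 to 10.60 and 10.65 at 4 h (0.85 ± 0.05, adjusted p = 3.22e-16), as did Igfbp1, a binding protein of insulin-like growth factors, from 12.77 and 12.80 to 13.62 and 13.55. Irs2, an insulin receptor substrate, fell by 0.74 and 0.72 at 2 and 4 h. Ppargc1a, a coactivator of fasting genes, fell by 0.48 at 2 h and by 0.89 at 4 h (4.39 and 4.62 against 5.46 and 5.33). With HGF added, Ppargc1a at 4 h and Pck1 at 2 h read under the array medians (4.88 to 4.95 over the 6 arrays). Both are thus dim genes. Pck1, the gluconeogenic enzyme PEPCK, fell by 1.06 at 2 h (4.67 and 4.44 against 5.55 and 5.69), was not called without the second array of either group (-0.99, adjusted p = 0.0819, and -0.95, adjusted p = 0.087), and differed by -0.40 at 4 h (adjusted p = 0.397). Glul, glutamine synthetase, fell 1.94-fold at 4 h (9.35 and 9.62 against 10.42 and 10.46; -0.95 ± 0.08, adjusted p = 6.08e-13), and Arg1, the urea cycle arginase, by 0.86 at 2 h (adjusted p = 0.0509 without the first IL-6 array) and 0.63 at 4 h. Of 14 cytochrome P450 genes 1 was called in the F-test over the 3 hours, against 23% of all genes. This was Cyp26a1, which clears retinoic acid and fell by 1.02 at 4 h (5.66 and 5.90 against 6.90 and 6.70).

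Cholesterol genes were called mainly at 4 h. Of 14 tested 1 rose at 0.5 h, 2 at 2 h and 8 at 4 h, and 0 fell at these hours. The median difference was 0.17, 0.1 and 0.33 at the 3 hours. Over all genes 3.49% rose at 0.5 h, 5.18% at 2 h and 5.84% at 4 h, and 7.41% fell at 4 h. A change of the difference between hours was called in 1 of the 14, so these counts do not date the rises. Insig1, the sterol-sensing regulator, rose by 0.38, 0.53 and 0.58. At 4 h the master regulator Srebf2 read 8.47 and 8.41 against 8.11 and 8.05 (0.36 ± 0.06, adjusted p = 2.42e-05), and Sqle, squalene epoxidase, 10.66 and 10.49 against 10.22 and 10.24. The rises of Insig1 and Sqle at 4 h held under every setting, whereas that of Srebf2 was lost when values were averaged over probe sets (0.12, adjusted p = 0.274). Among 17 fatty acid genes 4 rose and 5 fell at 4 h. Fasn, fatty acid synthase, rose by 0.40, while Cpt1a and Cpt2, which carry fatty acids into mitochondria, fell by 0.47 and 0.33. Of 28 ribosome biogenesis genes 2 rose at 0.5 h, 5 at 2 h and 11 at 4 h, and 0 fell, with a median of 0.15 at 4 h. Wdr43 rose by 0.38, Nop58 and Nolc1, both nucleolar, by 0.30, and Dkc1, the pseudouridine synthase, by 0.23 at that hour. Of 16 G1 cyclins, kinases and inhibitors 4 rose and 1 fell at 4 h. The antiproliferative gene Btg2 and the kinase inhibitor gene Cdkn1a rose by 0.64 and 0.29 at 2 h, and Ccnd1 was not called at any hour (0.01, -0.24 and -0.01, adjusted p from 0.203 to 0.979).

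The same HGF addition without IL-6, HGF minus unstimulated cells at the same hours, called more genes: 1687 higher (11.6%) and 1245 lower (8.58%) at 0.5 h, 2207 (15.2%) and 2302 (15.9%) at 2 h, and 2251 (15.5%) and 2700 (18.6%) at 4 h. The 4 groups of arrays in the 2 differences share none. The difference between the 2 HGF differences, the interaction, was called in 1123 genes at 0.5 h (7.74%), 1666 at 2 h (11.5%) and 1831 at 4 h (12.6%). The unstimulated arrays also stood apart in the gap between 3' and 5' signal of the dap spike (1.18 to 1.52, against 2.46 to 2.86 on all arrays of the 3 stimulated groups). Their bioB read 8.11 to 8.38; the HGF arrays lay within that range at 0.5 h (8.23 to 8.30) and below it at 2 and 4 h (6.14 to 6.20). The spikes therefore set different pairs of groups apart at different hours, and an interaction and these differences cannot be told apart. Of the genes that rose with HGF added to IL-6, 235 of 506 at 0.5 h, 519 of 751 at 2 h and 651 of 848 at 4 h also rose with HGF alone, and 6, 17 and 24 fell. Of those that fell, 9 of 165, 266 of 492 and 633 of 1075 also fell with HGF alone.

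Several early genes had a smaller HGF difference with IL-6 than without it. Egr2 at 0.5 h read 7.03 and 7.53 with HGF and 4.21 and 4.02 unstimulated, a difference of 3.16, against 1.72 with IL-6 (interaction -1.44, adjusted p = 6.85e-05). Its level was highest with both stimuli, and at 2 and 4 h its difference was larger with IL-6 (interaction 0.74, adjusted p = 0.0379, and 0.83, adjusted p = 0.0164). Fos (interaction -0.92 at 0.5 h, adjusted p = 6.53e-05), Dusp6 (-0.60, -0.77 and -0.67 at the 3 hours, adjusted p at most 3.58e-05), Dusp5 (-1.05 at 2 h), Hbegf (-0.90 at 2 h) and Egr1 (-0.65, -0.64 and -0.42) were called in the same direction. Socs3 rose by 0.92 with HGF alone at 2 h, from 7.11 and 7.26 to 8.06 and 8.15, and differed by 0.04 on top of IL-6 (interaction -0.88, adjusted p = 3.31e-06). The neutrophil chemokine Cxcl3 rose by 2.44 at 4 h with HGF alone and by 0.87 with IL-6 (interaction -1.57, adjusted p = 0.00142).

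Other differences were larger with IL-6. Called interactions were not counted by direction, so the genes named do not show which kind was more frequent. Cxcl10 at 4 h rose by 1.21 with HGF alone, from 7.02 and 7.16 to 8.34 and 8.27, and by 2.42 with IL-6 (interaction 1.21, adjusted p = 8.04e-05), while at 2 h the differences were 1.34 and 1.33. Zfp36, an mRNA decay factor, rose by 0.57 and 0.61 at 2 and 4 h with IL-6 and differed by 0.04 and -0.04 without it (interaction 0.53, adjusted p = 0.00118, and 0.64, adjusted p = 9.88e-05), whereas at 0.5 h it rose more without IL-6 (0.96 against 0.37). Cyp26a1 fell with IL-6 and differed by -0.08 without it at 4 h (interaction -0.95, adjusted p = 0.000657). Hamp, by contrast, fell further without IL-6 at 4 h, with a difference of -2.10, from 7.78 and 7.73 to 5.57 and 5.74 (interaction 1.16, adjusted p = 0.000315). For Arrdc3 the 2 differences were close, -2.28 and -2.38 at 2 h (interaction 0.10, adjusted p = 0.837) and -1.71 and -1.79 at 4 h (0.08, adjusted p = 0.869).

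**Figure D3:**
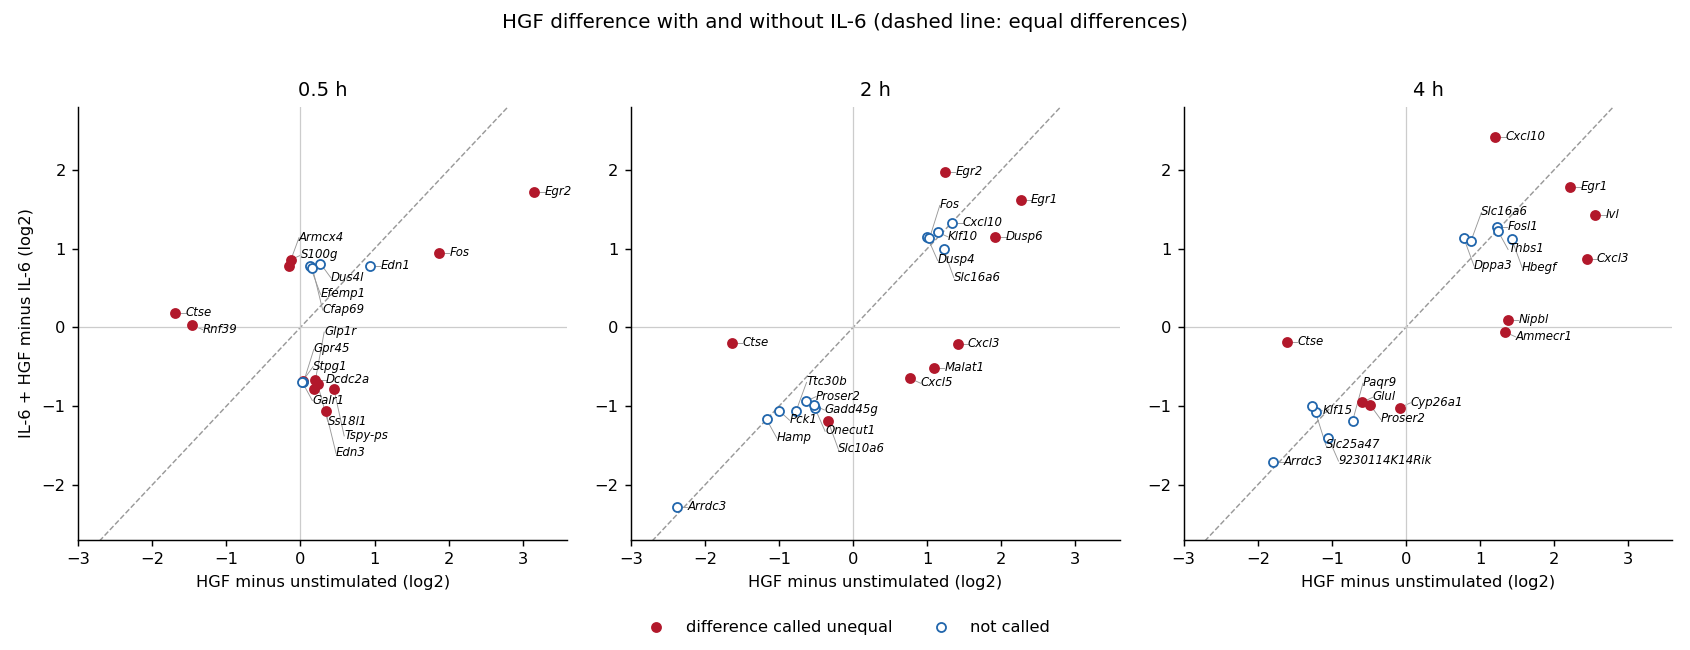
Log2 HGF difference without IL-6 (x axis, HGF minus unstimulated) and with IL-6 (y axis, IL-6 plus HGF minus IL-6). Points are the genes picked by size of difference or of interaction at 0.5, 2 and 4 h. Filled points were called for unequal differences, and the dashed line marks equal ones. Egr2 and Fos lie to the right of the line at 0.5 h, Arrdc3 lies close to it at 2 and 4 h, and Cxcl10 lies above it at 4 h (2.42 against 1.21).

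The later hours of the same comparison, 8 to 32 h on other arrays, show how far the early differences were still called. Genes called numbered 1937 at 8 h (13.3%), 2654 at 16 h (18.3%), 2542 at 24 h (17.5%) and 1882 at 32 h (13%). Rises made up 5.72%, 10.9%, 7.72% and 6.19% of all genes at these 4 hours, and falls 7.63%, 7.35%, 9.79% and 6.78%. Of the 848 rises at 4 h, 394 also rose at 8 h (46.5%), 376 at 16 h, 181 at 24 h and 147 at 32 h, and of the 1075 falls 470 also fell at 8 h (43.7%), 261 at 16 h, 264 at 24 h and 163 at 32 h. Calls in the opposite direction were few at 8 h (3 of the rises and 1 of the falls) and more frequent later: 13, 75 and 51 of the rises were lower at 16, 24 and 32 h, and 71, 79 and 74 of the falls were higher. Among the rises of 0.5 and 2 h, genes that were lower at 24 h outnumbered those still higher (88 against 61 of 506, and 169 against 110 of 751), as they did at 32 h (58 against 44, and 117 against 101). The first IL-6 array of 24 h had wide gaps between 3' and 5' signal. They were 3.99 for dap, 0.94 for actin and 0.75 for gapdh, against 2.66, 0.59 and 0.16 on the second. The part of that array in the calls at 24 h was not tested. Egr2 was not called at 8 h (0.17, adjusted p = 0.614) and fell at 24 h (-0.70). Fos was not called at 8 h (0.09, adjusted p = 0.683) and fell by 1.06 at 24 h. Cxcl10 was not called at 8 h (0.22, adjusted p = 0.416). Egr1 and Fosl1 kept a difference of 0.84 and 1.07 at 8 h and of 0.55 and 0.74 at 16 h. Hamp had differences of -1.73 at 8 h and -2.31 at 32 h, and Paqr9 remained lower at each later hour, by 1.37 at 8 h and 0.63 at 32 h.

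**Figure D4:**
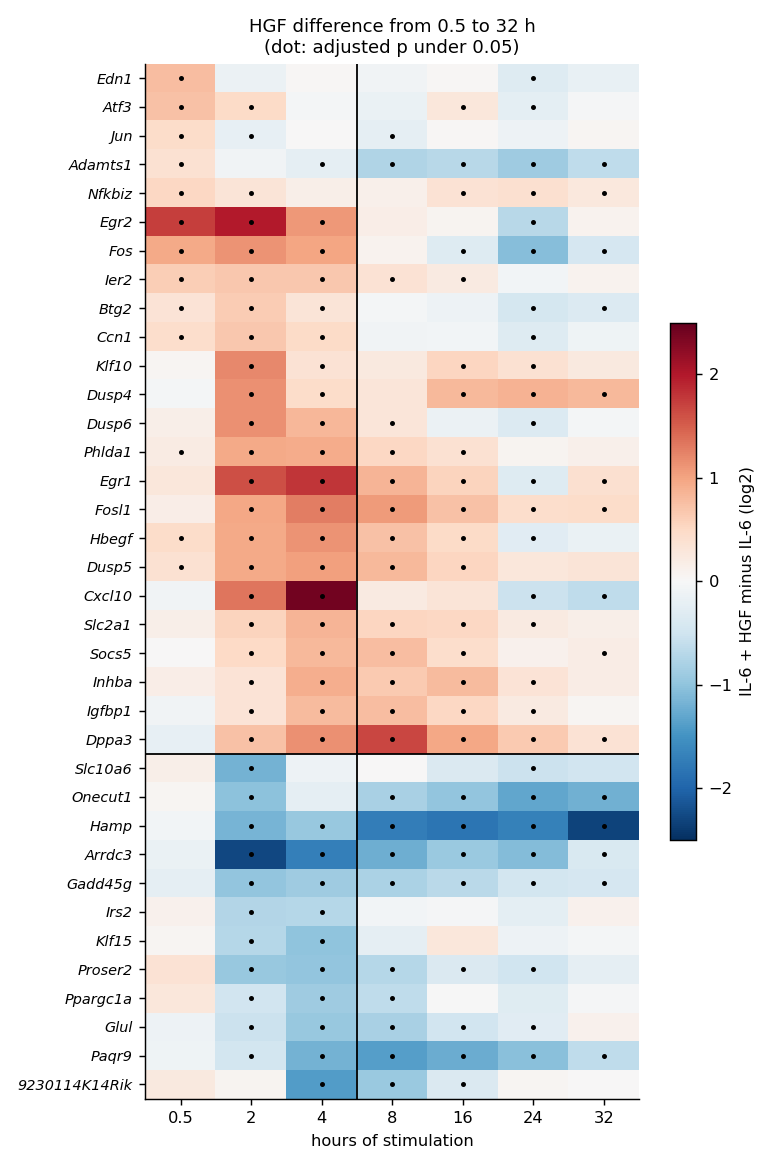
Log2 difference, IL-6 plus HGF minus IL-6 (colour, red higher and blue lower with HGF added), for 36 genes (rows) at 7 hours (columns); dots mark adjusted p under 0.05, the vertical line separates 4 h from the later hours and the horizontal line separates genes shown for a rise from those shown for a fall. Egr2 and Fos are marked as higher up to 4 h and no longer at 8 h, Fosl1 is red from 2 h onwards, and Hamp is blue from 2 to 32 h.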

How the data were processed

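Primary mouse hepatocytes were profiled on Affymetrix mouse expression arrays. The deposited table holds the authors' processed log2 intensities of 45101 probe sets; their summarisation and normalization are not stated in any label or file header used here. Of the probe sets 34945 have 1 gene symbol, 932 several and 9224 are not listed. For each of the 18193 genes the probe set with the highest mean was kept, and 14512 exceeded the 40th percentile on at least 2 arrays. R 4.3.3 and limma 3.58.1 fitted group means over all 60 arrays (lmFit, eBayes with a trend), with Benjamini-Hochberg adjustment at 0.05. IL-6 plus HGF was compared with IL-6 at each hour, over the 3 hours by an F-test, and with the HGF difference of unstimulated cells by an interaction. Genes at 8 to 32 h were compared in the same fit. The number of arrays, 2 per group, limits the precision.

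Named were, at each hour, the 8 largest called rises and falls whose arrays did not overlap and the 4 largest called interactions; the 4 largest called changes between hours in each direction; the 4 members with the smallest F-test p of each described list (29 lists, 535 genes written, 493 tested, 31 with no probe set of their own); and Met, Il6ra, Il6st, Socs3, Cxcl10, Egr1 and Fos. The members and lists were chosen with earlier results of these data known. Other genes named were chosen after their values were seen. The script was checked on simulated data. The alternatives tried were quantile normalization, no filter, a filter at the 60th percentile, means over probe sets, a fit of the compared arrays only, a replicate block, no trend, robust eBayes and leaving out each array. Promoter sequences are RefSeq's, build GRCm38.p6.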

Additional observations from a re-analysis of the deposited data

Results flagged for a closer look

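The HGF difference with IL-6 differed from that without IL-6, by the interaction test, in 1123 genes at 0.5 h, 1666 at 2 h and 1831 at 4 h. Several of the largest of these came from the unstimulated arrays. Ctse, a cathepsin, had interactions of 1.87, 1.43 and 1.42 at the 3 hours: its unstimulated arrays read 6.68 to 6.98, all arrays of the other 3 conditions 4.91 to 5.38, and HGF added to IL-6 was not called (0.18, -0.20 and -0.19). Rnf39 had an interaction of 1.48 at 0.5 h, with 7.69 and 7.84 in unstimulated cells and 6.19 to 6.43 elsewhere. At 4 h Ammecr1 (-1.40) and Nipbl (-1.29) were lower in unstimulated cells (5.23 and 5.33, and 6.76 and 7.18) than in the others (5.91 to 6.67, and 8.06 to 8.40). The unstimulated arrays also differed in the dap spike, and that part was not tested.

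In other genes the arrays with HGF differed. Egr2 had an interaction of -1.44 at 0.5 h. Edn3 had one of -1.39 at that hour, where HGF alone differed by 0.34. The chemokine Cxcl3 had -1.62 at 2 h and -1.57 at 4 h, and Cxcl5 had -1.42 at 2 h, with 5.79 and 5.66 against 6.10 and 6.64 with IL-6 and 6.12 and 6.24 against 5.51 and 5.30 without. Malat1, a nuclear noncoding RNA, had -1.61 at 2 h: it fell by 0.52 with IL-6 and rose by 1.09 without.

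The HGF difference changed between the hours in 1428 genes. From 0.5 to 4 h it moved down most in 9230114K14Rik (-1.64), Esco2 (-1.61), Arrdc3 (-1.55) and Proser2 (-1.35), and up most in Cxcl10 (2.50), Egr1 (1.52), Dppa3 (1.36) and Edn3 (1.23). Esco2, a cohesin acetyltransferase, was not called at 0.5 h (0.67, adjusted p = 0.0558) and fell by 0.94 at 4 h (4.52 and 5.05 against 5.76 and 5.68). The change of Edn3 was not called when values were averaged over probe sets (adjusted p = 0.243).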

How the results depend on the processing

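Quantile normalization took the genes called at 0.5 h from 671 to 236 (199 of them shared); every other count stayed within 1.5 times its main value under the settings that kept all arrays. A similar count can hold other genes: averaging over probe sets called 523 genes at 0.5 h, 892 at 2 h and 1513 at 4 h, of which 304, 746 and 1232 were shared. The cause was not tested. Leaving out 1 array gave 28 to 867 genes at 0.5 h, 558 to 769 at 2 h and 1022 to 1349 at 4 h, against 671, 1243 and 1923. Over the 3 hours it gave 2575 to 3432 (3338 with all arrays), for a changing difference 895 to 1345 (1428), and for the interactions 700 to 1012 (1123), 1072 to 1407 (1666) and 922 to 2008 (1831). With fewer arrays each such fit has less data, and the lone array was assumed to vary like the other groups. At 2 h each of the 4 arrays lowered the count by over 1.5 times when left out (672 and 612 without the first or second IL-6 array, 558 and 769 without the first or second IL-6 plus HGF array), and at 4 h the IL-6 arrays did (1022 and 1062). The changing difference moved as far without the first IL-6 array of 0.5 h (940) or either of 4 h (895 and 901). The interactions did so without the first unstimulated, second HGF, first IL-6 or second IL-6 plus HGF array at 0.5 h (712, 706, 700 and 729), the first unstimulated, second HGF or first IL-6 array at 2 h (1106, 1089 and 1072), and the first unstimulated, second IL-6 or first IL-6 plus HGF array at 4 h (1110, 1207 and 922). With the replicate block 737, 1265 and 1939 genes were called, of which 661, 1206 and 1882 were shared; same-numbered arrays did not deviate together (r of 0.052, 0.015 and 0.0339 at the 3 hours). Of the single-gene values, 1339 kept their side of the threshold under the settings with all arrays, 33 lost their call and 3 gained one; without 1 array the numbers were 725, 78 and 1. None of the values called in the main fit changed direction, and the direction of values not called there was not followed. With 2 arrays per group, small differences of dim genes are the least certain.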

Other observations

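Counts of further lists follow. Of 17 NF-kB, feedback and mRNA decay genes 8 were higher and 1 lower in the F-test over the 3 hours, of 13 NRF2 genes 5 and 2, of 17 p53 and apoptosis genes 5 and 4, and of 17 clock genes 5 and 3, against 12.5% and 10.5% of all genes. Of 12 MYC network and PIM genes 3 were higher and 3 lower, of 19 stress genes of the endoplasmic reticulum 4 and 1, of 21 YAP and SRF cytoskeletal targets 6 and 1, of 13 urea cycle and amino acid genes 2 and 4, and of 15 bile acid genes 1 and 1.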
